A study of Homo sapiens with 8 samples.

Results

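Complement is a set of plasma and cell-surface proteins that tag and attack particles. The 9 complement genes described here were taken by symbol from the 23562 rows of the count table, and each symbol had 1 row. They were CFD, CFP and C3 among the components, C3AR1, C5AR1 and CR1 among the receptors, and CD46, CD55 and CD59 among the regulators. The genes were selected on their levels in these 8 libraries, with sgCEBPD set against sgControl, so their differences between groups are given as a description and are not evidence that complement genes stand apart from other genes.

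The cells were of the established human leukemia line OCI-AML5, of acute myeloid type. All 8 cultures received a lentiviral lentiCRISPRv2 vector, which carries Cas9 and a guide RNA. The 4 sgCEBPD libraries came from cells with guides against CEBPD (sgCEBPD 1 to 4), and the 4 sgControl libraries from cells with non-specific guides (sgControl 1 to 4), each library with a different guide. No label gives the time after transduction, says whether cells were cloned, or says whether a transduction was repeated, so the spread within a group is the spread between these libraries. Polyadenylated RNA was sequenced, and library totals lay between 10217751 and 11521209 counts. In this bulk RNA, fewer cells of a type and less RNA per cell cannot be told apart.

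In the alternative pathway, factor D (CFD) is the serine protease that cleaves factor B once it is bound to C3b, and properdin (CFP) stabilises the resulting C3 convertase. C3 is the central component: its cleavage gives C3b, which coats surfaces, and the small peptide C3a. C3a is sensed by C3AR1 and the C5 fragment C5a by C5AR1, both G protein-coupled receptors of myeloid cells, while CR1 (CD35) binds C3b and C4b on blood cells. Host cells protect themselves with CD46, a cofactor for cleavage of C3b and C4b, CD55, which speeds the decay of convertases, and CD59, which blocks the membrane attack complex.

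The widest ranges between libraries were those of CR1, C3AR1, C5AR1, C3 and CFD. Promoter windows of 4 of these genes are shown because the targeted gene CEBPD codes for a DNA-binding factor of the C/EBP family. Each window runs from 250 bases before to 50 bases after the RefSeq start site on GRCh38.p14 and is written in the direction of transcription. Capitals mark matches to TTNNGNAA, a C/EBP consensus, or to CCAAT, on either strand. The windows lie at chr12:8066310-8066609 on the minus strand (C3AR1), chr1:207495907-207496206 on the plus strand (CR1), chr19:47309611-47309910 on the plus strand (C5AR1) and chr19:859414-859713 on the plus strand (CFD).
C3AR1: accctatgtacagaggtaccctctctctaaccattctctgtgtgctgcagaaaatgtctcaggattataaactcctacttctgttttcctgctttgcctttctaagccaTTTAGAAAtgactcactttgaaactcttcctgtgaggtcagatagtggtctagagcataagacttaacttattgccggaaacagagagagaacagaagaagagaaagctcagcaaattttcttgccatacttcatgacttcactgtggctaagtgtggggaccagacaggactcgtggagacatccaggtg
CR1: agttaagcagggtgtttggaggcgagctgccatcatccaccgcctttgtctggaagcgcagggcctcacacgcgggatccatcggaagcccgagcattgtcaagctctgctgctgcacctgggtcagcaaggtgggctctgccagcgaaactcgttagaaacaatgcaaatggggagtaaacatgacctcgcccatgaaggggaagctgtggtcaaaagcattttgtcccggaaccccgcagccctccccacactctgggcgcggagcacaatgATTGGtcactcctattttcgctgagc
C5AR1: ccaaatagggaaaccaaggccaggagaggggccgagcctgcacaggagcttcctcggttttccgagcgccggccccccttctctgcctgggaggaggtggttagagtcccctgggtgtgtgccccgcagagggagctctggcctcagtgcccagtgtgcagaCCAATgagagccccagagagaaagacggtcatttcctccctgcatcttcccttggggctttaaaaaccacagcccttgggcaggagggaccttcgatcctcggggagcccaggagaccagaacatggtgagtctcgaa
CFD: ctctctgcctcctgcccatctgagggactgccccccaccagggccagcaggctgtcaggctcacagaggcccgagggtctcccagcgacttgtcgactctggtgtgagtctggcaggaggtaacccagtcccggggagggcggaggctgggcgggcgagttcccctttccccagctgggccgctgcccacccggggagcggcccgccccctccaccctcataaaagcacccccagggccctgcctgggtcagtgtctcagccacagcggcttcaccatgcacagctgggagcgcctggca

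TTNNGNAA occurred in 2 of the 13 windows that RefSeq gives for 8 of the 9 genes, against 36.8% of 35114 windows of the same length. The matches were in C3AR1, 141 bases before the start site, and in 1 window of CD59, which held 2 matches. CCAAT was present in 7 of the 13 windows, against 34.6% of all windows, in C5AR1, CR1, CD46 and CD59. In C5AR1 it stood 88 bases before the start site, and in CR1 its reverse complement stood at position 25 after it. The palindrome TTGCGCAA, which is a special case of TTNNGNAA, and the PU.1 site GAGGAAGT were in none of the 13 windows, against 0.151% and 2.59% of all windows. Some windows of a gene overlap, so they are not independent, and a match or its absence in these windows says nothing about binding.

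CEBPD transcript was at 107, 209, 195 and 164 CPM (counts scaled to the TMM-normalised library size) in sgCEBPD 1 to 4, against 216, 204, 205 and 202 CPM in sgControl 1 to 4. Cas9 edits often leave a transcript intact, so these levels are no check on the labels. The most distant library was sgCEBPD 3: 15.6% of the 13838 genes tested differed over 2-fold between it and the mean of sgCEBPD 1, 2 and 4. For each of those 3 libraries set against the other 2, the shares were 2.36%, 3.3% and 2.97%. Myeloid identity was seen in every library, with SPI1 at 297 CPM or more, CSF1R at 387 CPM or more and CD33 at 99.0 CPM or more. ANPEP (CD13), a myeloid marker, was at 0.473 CPM or less in all 8. Because sgCEBPD 3 differs so widely, it is given apart from the other sgCEBPD libraries in each result.

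Most markers of monocytes and macrophages moved with sgCEBPD 3. Of 15 fixed markers 14 were in the table, and 11 of these were highest in sgCEBPD 3. Their summed level was 1266 CPM there, 587 to 789 CPM in sgCEBPD 1, 2 and 4 and 579 to 629 CPM in the sgControl libraries. CD14 was at 41.0 CPM in sgCEBPD 3, at 0.259 to 2.74 CPM in sgCEBPD 1, 2 and 4, and had 0 counts in 3 of 4 sgControl libraries. FCGR3A had 0, 5, 15 and 2 counts in sgCEBPD 1 to 4, with 1.47 CPM in sgCEBPD 3, and 0 counts in all 4 sgControl libraries. S100A8, a monocyte and neutrophil gene, went the other way and stood at 0.0982 CPM in sgCEBPD 3. It was at 5.01 to 11.6 CPM in sgCEBPD 1, 2 and 4 and at 0.525 to 2.02 CPM in sgControl. S100A9 was at 1.08 CPM in sgCEBPD 3, 2.59 to 8.70 CPM in sgCEBPD 1, 2 and 4 and 0.612 to 1.56 CPM in sgControl. LYZ, at 80.9 CPM in sgCEBPD 3, lay within the range of the other libraries, 37.0 to 189 CPM. The 4 progenitor markers summed to 160.5 CPM in sgCEBPD 3, to 239 to 410 CPM in sgCEBPD 1, 2 and 4 and to 250 to 393 CPM in the sgControl libraries. The lymphoid marker CD3D was at 52.7 CPM in sgCEBPD 3 and at 0.459 CPM or less elsewhere. The part of such cell states in the results below was not tested.

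In sgCEBPD 3 the receptor genes C3AR1, C5AR1 and CR1 were high, C3, CD55 and CD46 were also at their highest, and CFD was at its lowest. In sgCEBPD 1, 2 and 4 the largest log2 fold change from the controls among the 6 tested genes was that of CR1. CR1 was low there, at 5 or 6 counts a library, near the 8 counts of sgControl 2. Of the 9 genes, 6 were higher in sgCEBPD 3 than in all 7 other libraries and 1 was lower. Among the 6 genes that passed the filter on low counts, 4 were highest in sgCEBPD 3, against a background of 34.8% of all genes tested, and 1 was lowest, against 34.9%. A stricter cut, over 2-fold above the highest of the other 7 libraries, held 3 of these 6 genes (C3AR1, CR1 and CD55), against 3.97% of all genes tested. The genes were chosen with these values known, so nothing is read from those shares.

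**Figure D1:**
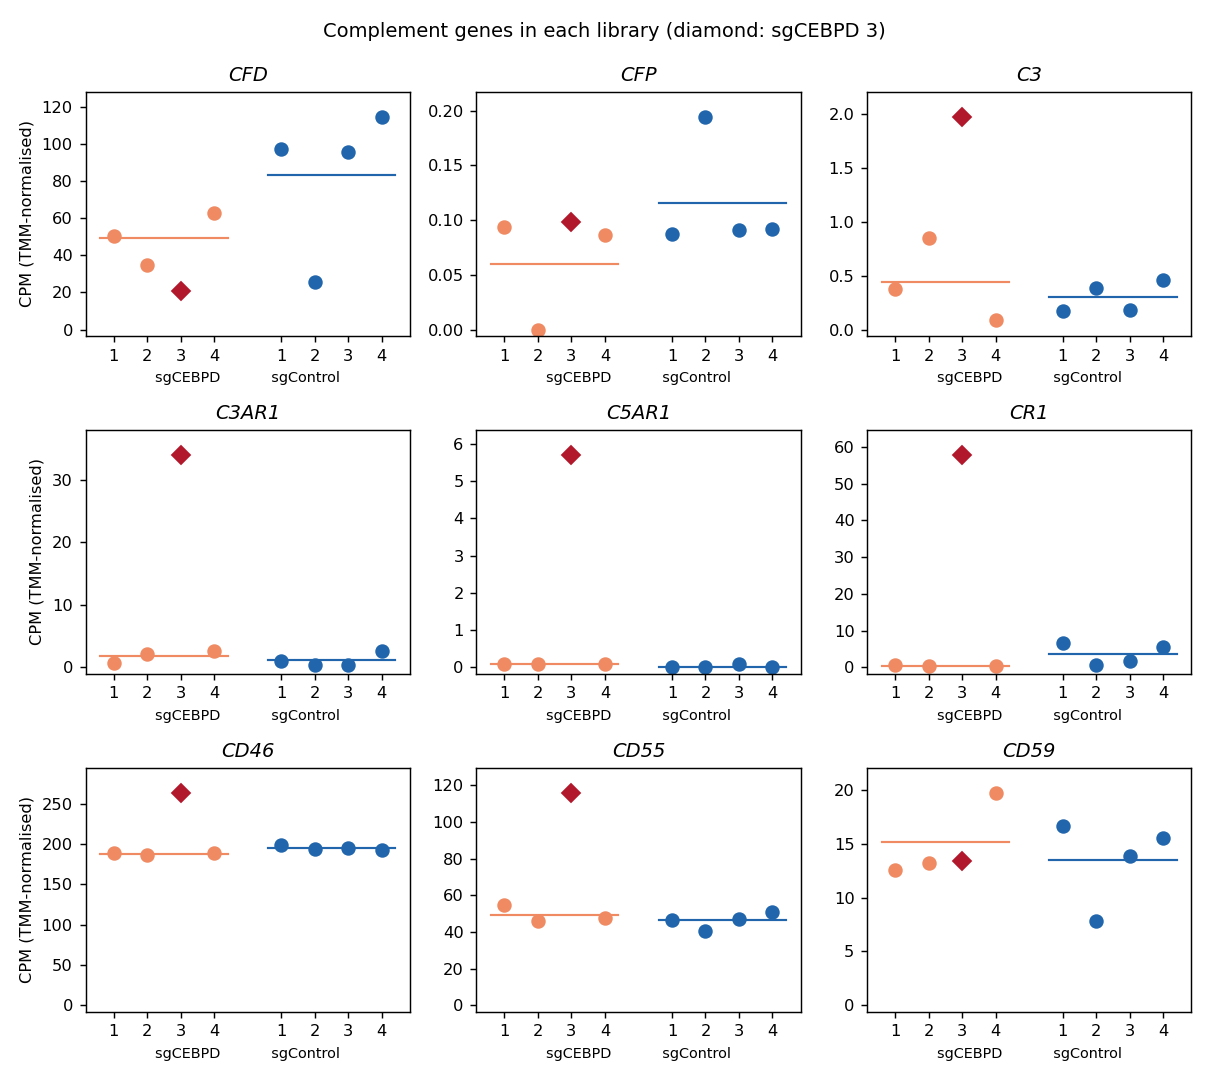
Level of each complement gene in every library, in TMM-normalised CPM, with sgCEBPD 1 to 4 left of sgControl 1 to 4; the red diamond is sgCEBPD 3, and lines are the means of sgCEBPD 1, 2 and 4 and of the 4 sgControl libraries. The diamond is the highest point for C3, C3AR1, C5AR1, CR1, CD46 and CD55 and the lowest for CFD.

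Set against the sgControl libraries in edgeR's quasi-likelihood test over the whole table, 0 of the 6 tested genes passed an adjusted p of 0.05 with all 8 libraries, where 0.0795% of all genes passed. Without sgCEBPD 3 it was again 0 of 6, where 2.01% of all genes passed. At an unadjusted p under 0.05 there was 1 gene in each comparison, C3AR1 with 8 libraries, where 11.4% of all genes were, and CR1 with 7, where 15.5% were. DESeq2 called 0 of the 6 with 8 libraries, leaving C3AR1 and CR1 without an adjusted p, and called CR1 with 7. In DESeq2, 2.11% of all genes passed with 8 libraries and 4.24% with 7. CFP, C3 and C5AR1 did not pass the filter and were not tested.

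Among the components, CFD was the most abundant and the most variable between controls. It stood at 50.3, 34.7, 20.8 and 62.7 CPM in sgCEBPD 1 to 4, against 97.1, 25.9, 95.7 and 114 CPM in sgControl 1 to 4. All 4 sgCEBPD libraries lay below sgControl 1, 3 and 4, but sgControl 2 lay below sgCEBPD 1, 2 and 4, so the groups overlap. The means were 42.1 ± 18.3 CPM in sgCEBPD and 83.2 ± 39.2 CPM in sgControl (SD, n = 4 each), with a log2 fold change of -0.98 (SE 0.47). Without sgCEBPD 3 the sgCEBPD mean was 49.3 ± 14.0 CPM (SD, n = 3), and the log2 fold change -0.76 (SE 0.54). In sgCEBPD 3, CFD stood at 25.0% of the control mean. A spread of over 4-fold between the highest and the lowest control, which CFD shows, was found in 1.89% of the genes tested.

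CFD lies on chromosome 19 from 859643 to 863630 (GRCh38, GENCODE release 29), beside the neutrophil granule protease genes. PRTN3, proteinase 3, was at 0.393 CPM in sgCEBPD 3, at 0.468 to 2.59 CPM in sgCEBPD 1, 2 and 4 and at 0.0908 to 2.20 CPM in sgControl. ELANE, neutrophil elastase, ends 3396 bases before it. ELANE had 0 counts in sgCEBPD 1, 2 and 3 and 0.518 CPM in sgCEBPD 4, against 0.363 to 1.47 CPM in the sgControl libraries. AZU1, azurocidin, stood at 18.9 CPM in sgCEBPD 3, where CFD was lowest, at 1.99 to 4.66 CPM in sgCEBPD 1, 2 and 4 and at 3.54 to 6.33 CPM in sgControl. MED16, the Mediator subunit gene on the other side, was at 83.8 to 99.3 CPM in sgCEBPD and 76.5 to 86.9 CPM in sgControl. In sgCEBPD 3, AZU1 and MED16 were thus at their highest. PRTN3 had 4 counts there and 5 counts each in sgCEBPD 1 and 2, and ELANE had 0 in all of these. Such counts do not set sgCEBPD 3 apart from sgCEBPD 1 and 2.

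C3 and CFP were near the limit of detection. C3 had 4, 9, 20 and 1 counts in sgCEBPD 1 to 4, against 2, 4, 2 and 5 counts in sgControl 1 to 4. The highest level, 1.96 CPM, was in sgCEBPD 3, followed by 0.851 CPM in sgCEBPD 2. The count in sgCEBPD 3 over the pooled counts of sgCEBPD 1, 2 and 4, scaled for library size, gave a ratio of 4.61, with an exact 95% interval of 2.21 to 9.86 for counting error only. Part of C3 overlaps GPR108 on the same strand in the annotation, and reads there cannot be assigned with certainty. CFP had 1, 0, 1 and 1 counts in sgCEBPD 1 to 4, against 1, 2, 1 and 1 counts in sgControl 1 to 4, which allows no comparison.

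Of the anaphylatoxin receptors, C3AR1 was low in 7 libraries and high in sgCEBPD 3. It stood at 0.748, 2.08, 33.9 and 2.68 CPM in sgCEBPD 1 to 4, against 1.05, 0.388, 0.454 and 2.66 CPM in sgControl 1 to 4. The level in sgCEBPD 3 was 18.5 times the mean of the other sgCEBPD libraries, while those 3 libraries overlapped the controls. With all 8 libraries the log2 fold change was 3.09 (SE 1.24), and without sgCEBPD 3 it was 0.69 (SE 0.69), with means of 1.84 ± 0.988 CPM in sgCEBPD (SD, n = 3) and 1.14 ± 1.06 CPM in sgControl (SD, n = 4). Leaving out sgControl 4, the highest control, moved the log2 fold change to 3.92 with sgCEBPD 3 and to 1.52 without it.

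C5AR1 was detected almost only in sgCEBPD 3. It had 1, 1, 58 and 1 counts in sgCEBPD 1 to 4, against 0, 0, 1 and 0 counts in sgControl 1 to 4. In the sgControl libraries with 0 counts, 3 counts would be 0.262 to 0.291 CPM, so levels up to there cannot be told from 0. The level in sgCEBPD 3 was 5.70 CPM. Its 58 counts, set against the 3 counts of the other sgCEBPD libraries pooled and scaled for library size, gave a ratio of 62.4, with an exact 95% interval of 20.3 to 311 for counting error only. C5AR2, the second C5a receptor, was named after its values were seen. It stood at 16.8 CPM in sgCEBPD 3, at 0.468 to 1.42 CPM in sgCEBPD 1, 2 and 4 and at 0.454 to 0.962 CPM in the sgControl libraries.

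CR1 moved in opposite directions in sgCEBPD 3 and in the other sgCEBPD libraries. It stood at 0.561, 0.473, 57.8 and 0.518 CPM in sgCEBPD 1 to 4, against 6.56, 0.775, 1.64 and 5.69 CPM in sgControl 1 to 4. These are 6, 5, 588 and 6 counts, against 75, 8, 18 and 62 counts. In sgCEBPD 1, 2 and 4 the level lay below every control, at 0.518 ± 0.0442 CPM (SD, n = 3). At 5 or 6 counts a library, that SD says little about their spread. Counting error does not separate them from the 8 counts of sgControl 2. The controls varied 8.46-fold, with a mean of 3.66 ± 2.88 CPM (SD, n = 4). The level in sgCEBPD 3 was 15.8 times the control mean.

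The log2 fold change of CR1 therefore turns on sgCEBPD 3: it was 2.00 (SE 1.55) with 8 libraries and -2.80 (SE 0.86) without it. In the 7-library comparison CR1 and CD46 were the members whose groups did not overlap, both lower in sgCEBPD, where 7.5% of all genes tested were lower with no overlap. CR1 consists of long repeated blocks and has a related neighbour, CR1L, and AL137789.1 overlaps it on the other strand, so the counts may include reads from similar or overlapping sequence.

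**Figure D2:**
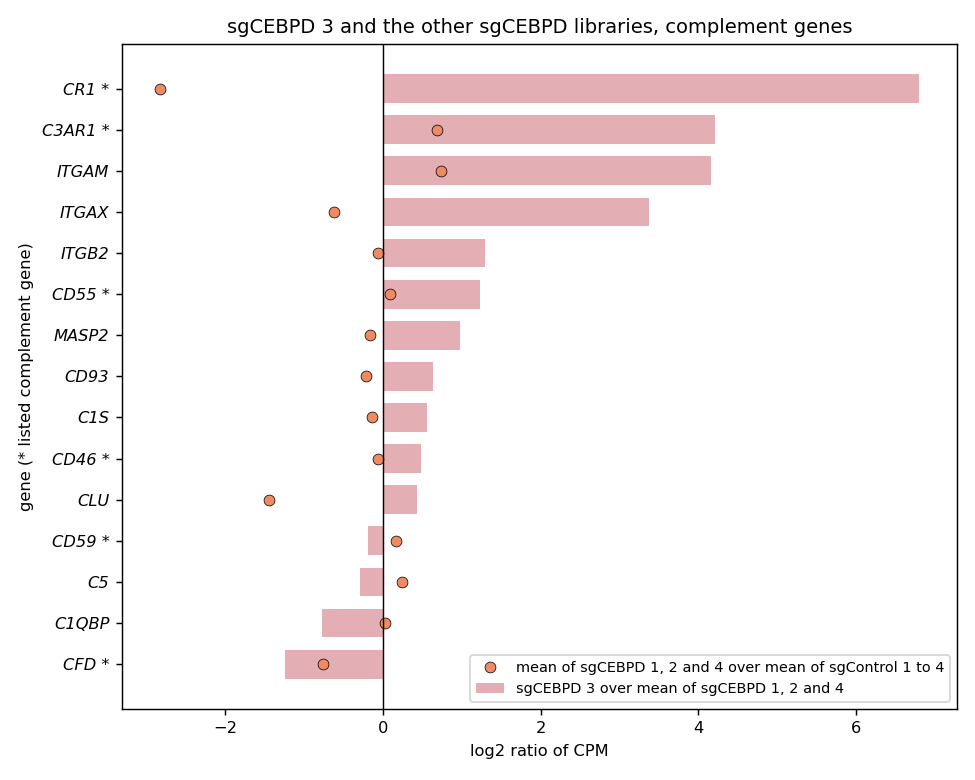
Log2 ratios of CPM for the 6 tested members and 9 other complement genes named in the text: bars give sgCEBPD 3 over the mean of sgCEBPD 1, 2 and 4, and dots give the mean of sgCEBPD 1, 2 and 4 over the mean of the 4 sgControl libraries. CR1 has the longest bar to the right, 6.80, with its dot to the left, while CFD has both its bar, -1.24, and its dot to the left.

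Of the 6 tested genes, the membrane regulators CD46, CD55 and CD59 varied least between libraries. CD46 stood at 189, 187, 264 and 188 CPM in sgCEBPD 1 to 4, against 199, 194.5, 195 and 192 CPM in sgControl 1 to 4. The 3 sgCEBPD libraries other than sgCEBPD 3 lay just below the controls, at 96.1% of the control mean, and sgCEBPD 3 lay above them at 135%. The log2 fold change was 0.08 (SE 0.11) with 8 libraries and -0.06 (SE 0.04) without sgCEBPD 3, so its sign too depends on that library.

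CD55 stood at 54.7, 45.8, 116 and 47.9 CPM in sgCEBPD 1 to 4, against 46.8, 40.7, 47.3 and 51.0 CPM in sgControl 1 to 4. In sgCEBPD 3 it was 2.34 times the mean of the other sgCEBPD libraries, which overlapped the controls. The log2 fold change was 0.51 (SE 0.29) with 8 libraries and 0.09 (SE 0.09) without sgCEBPD 3.

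CD59 did not separate sgCEBPD 3 from the other libraries. It stood at 12.5, 13.2, 13.4 and 19.7 CPM in sgCEBPD 1 to 4, against 16.6, 7.85, 13.9 and 15.5 CPM in sgControl 1 to 4. The means were 14.7 ± 3.34 CPM in sgCEBPD and 13.5 ± 3.91 CPM in sgControl (SD, n = 4 each), and the log2 fold change of 0.13 (SE 0.25) was smaller than its error. The ratio of sgCEBPD 3 to the pooled level of the other sgCEBPD libraries was 0.874, with an exact 95% interval of 0.718 to 1.06 for counting error only.

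CD55, CR1 and CD46 lie in the same direction on chromosome 1, between 207321376 and 207795513 (GRCh38), in the cluster of complement regulator genes. All 3 were highest in sgCEBPD 3, by 111.6-fold for CR1, 2.34-fold for CD55 and 1.40-fold for CD46 over the other sgCEBPD libraries. CD34, the progenitor surface marker, lies 85459 bases beyond CD46 and was lowest in sgCEBPD 3, at 7.86 CPM, with 29.9 to 67.5 CPM in sgCEBPD 1, 2 and 4 and 13.4 to 104 CPM in the sgControl libraries. CD34 thus went the other way from its 3 neighbours in sgCEBPD 3.

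Levels were compared between genes per kilobase of exon (GENCODE release 29, all annotated exons of a gene merged). In sgCEBPD 3, CD46 led with 30.3 CPM per kb, followed by CD55 at 19.6, CFD at 17.04, C3AR1 at 15.8, CR1 at 4.59, C5AR1 at 1.93, CD59 at 1.29, C3 at 0.236 and CFP at 0.0175 CPM per kb. In sgControl the mean was highest for CFD, at 68.1 CPM per kb, followed by CD46 at 22.4, CD55 at 7.86, CD59 at 1.30, C3AR1 at 0.531, CR1 at 0.291, C3 at 0.0361, CFP at 0.0206 and C5AR1 at 0.0077 CPM per kb. Across the controls, CFD (21.2 to 93.5 CPM per kb) overlapped CD46 (22.1 to 22.9), CD59 (0.758 to 1.60) overlapped C3AR1 (0.181 to 1.24), and C3AR1 overlapped CR1 (0.0616 to 0.521). CD46 and CD55 (6.89 to 8.64 CPM per kb) did not overlap, nor did CD55 and CD59, or CR1 and C3 (0.0210 to 0.0551 CPM per kb). C3, CFP (0.0156 to 0.0345 CPM per kb) and C5AR1 (0 to 0.0308) overlapped at the bottom of the order. In sgCEBPD 1, 2 and 4, CR1 averaged 0.0411 CPM per kb, within the range of C3 there (0.0104 to 0.102 CPM per kb). All annotated exons need not be used in these cells, so the order is approximate.

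**Figure D3:**
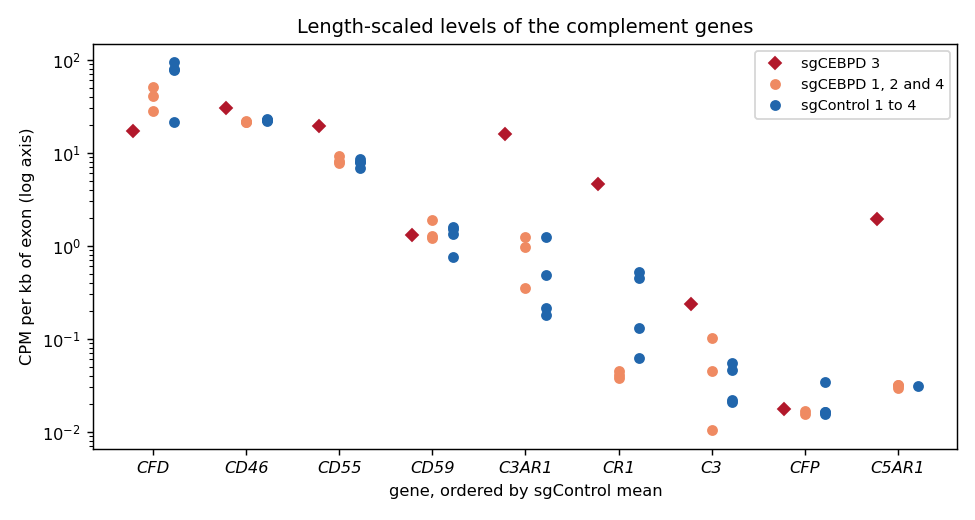
CPM per kilobase of exon on a log axis for each gene, ordered by the sgControl mean, with a red diamond for sgCEBPD 3, orange dots for sgCEBPD 1, 2 and 4 and blue dots for sgControl 1 to 4; libraries with 0 counts are not drawn. C3AR1 in sgCEBPD 3, at 15.8 CPM per kb, sits next to CFD at 17.04 CPM per kb, while in the controls these genes are far apart.

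The genes most like the variable members were found by the smallest root mean square difference of log2 CPM, each gene centred on its own mean over the 8 libraries. The genes nearest to CFD were SNX18P3 (0.32), a pseudogene, ANKRD18A (0.34) and ADAMTS1 (0.35), a secreted protease. Like CFD, ADAMTS1 was low in sgCEBPD 3 (2.06 CPM) and in sgControl 2 (6.20 CPM), with 12.8 to 17.2 CPM in the other controls. The genes nearest to C3AR1 were CTSL (0.51), a lysosomal protease, CCL2 (0.51), a monocyte chemokine, and WT1 (0.55), a transcription factor. CTSL stood at 44.1 CPM in sgCEBPD 3, next to 0.936 to 2.59 CPM in sgCEBPD 1, 2 and 4, against 0.818 to 2.85 CPM in sgControl. The genes nearest to CR1 were further off: FST (0.72), MGAM (0.85) and SIGLEC6 (0.95). All lists rest on the same 8 libraries and, for C3AR1 and CR1, largely on sgCEBPD 3.

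The wider pathway was described with 53 other complement genes listed with earlier results of these data known. Of these, 27 were in the table, 13 were tested with 8 libraries and 14 with 7. In edgeR's quasi-likelihood test 0 passed in either comparison, where 0.0795% and 2.01% of all genes passed. At an unadjusted p under 0.05 there were 3 of 13 with 8 libraries and 5 of 14 with 7, where 11.4% and 15.5% of all genes were. DESeq2 called 2 with 8 libraries, CLU among them, leaving ITGAM and ITGAX without an adjusted p. With 7 libraries it called 3, CLU and CALR among them. The DESeq2 shares over all genes were 2.11% and 4.24%. With 8 libraries 7 log2 fold changes were positive and 6 negative, with a median of 0.02, against 0.00029 over all genes tested. With 7 libraries 4 were positive and 10 negative, with a median of -0.15, against 0.0011 over all genes tested.

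CLU encodes clusterin, a secreted chaperone that also inhibits the membrane attack complex. It stood at 83.2, 40.2, 93.7 and 84.1 CPM in sgCEBPD 1 to 4, against 239, 139, 165 and 207 CPM in sgControl 1 to 4. Every sgCEBPD library, sgCEBPD 3 too, had a lower value than every control. A gap of this kind in the lower direction was found in 4.62% of all genes tested, and in 2 of the 13 listed genes tested. The means were 75.3 ± 23.9 CPM in sgCEBPD and 188 ± 44.4 CPM in sgControl (SD, n = 4 each), a log2 fold change of -1.32 (SE 0.27). The adjusted p in edgeR was 0.181, and 0.130 without sgCEBPD 3. CLU thus did not pass in edgeR without a block for guide number. With that block it passed without sgCEBPD 3 (adjusted p 0.0012), while with 8 libraries 0 listed genes passed. In DESeq2 the adjusted p of CLU was 0.0004 with 8 libraries and 0.0017 with 7. CLU was picked out for description with its values known.

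C5, the precursor of C5a and of the membrane attack complex, was at 20.5 ± 1.44 CPM in sgCEBPD 1, 2 and 4 (SD, n = 3) and at 17.4 ± 0.677 CPM in sgControl (SD, n = 4). Those groups did not overlap, as in 6.89% of all genes tested in the higher direction, but sgCEBPD 3, at 16.8 CPM, lay among the controls. C5 was the 1 listed gene of 14 with such a gap in the higher direction. In the lower direction there were 4 of 14, CLU, CD93 and CALR among them, where 7.5% of all genes were. The log2 fold change without sgCEBPD 3 was 0.24 (SE 0.09), and edgeR's adjusted p was 0.210. C5 was also named after its values were seen. CALR, calreticulin, a chaperone that binds C1q at the cell surface, was at 921 to 1253 CPM in sgCEBPD 1, 2 and 4 and at 1276 to 1561 CPM in sgControl, with 1666 CPM in sgCEBPD 3. Its log2 fold change without sgCEBPD 3 was -0.38 (SE 0.12), and edgeR's adjusted p was 0.190.

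**Figure D4:**
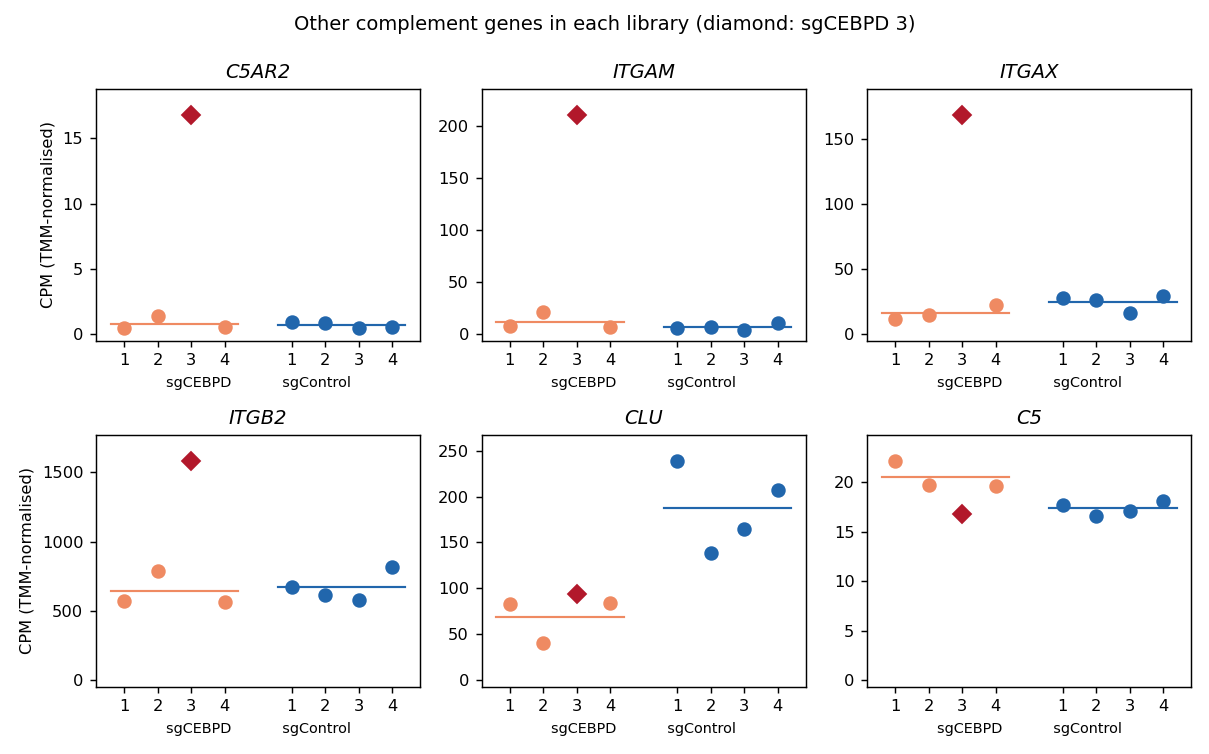
Level of 6 other complement genes in every library, in TMM-normalised CPM, with sgCEBPD 1 to 4 left of sgControl 1 to 4; the red diamond is sgCEBPD 3, and lines are the means of sgCEBPD 1, 2 and 4 and of the 4 sgControl libraries. C5AR2, ITGAM, ITGAX and ITGB2 peak in sgCEBPD 3 at 16.8, 210.4, 168 and 1583 CPM, whereas CLU is below the controls in all 4 sgCEBPD libraries.

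The integrins that act as complement receptors followed C3AR1 in sgCEBPD 3. ITGAM, the alpha chain of complement receptor 3, stood at 210.4 CPM there, at 6.48 to 21.3 CPM in sgCEBPD 1, 2 and 4 and at 4.00 to 10.9 CPM in sgControl. ITGAX, the alpha chain of complement receptor 4, stood at 168 CPM there, at 11.97 to 22.1 CPM in sgCEBPD 1, 2 and 4 and at 16.3 to 29.0 CPM in sgControl. Their shared beta chain ITGB2 was at 1583 CPM in sgCEBPD 3, 2.46 times the mean of the other sgCEBPD libraries, which spanned 566 to 790 CPM, against 577 to 820 CPM in sgControl. ITGAM is also on the monocyte list above.

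The other listed genes that passed the filter differed less in sgCEBPD 3. MASP2, a protease of the lectin pathway, stood at 3.73 CPM in sgCEBPD 3, next to 1.47 to 2.37 CPM in sgCEBPD 1, 2 and 4, against 1.84 to 2.45 CPM in sgControl. CD93, a surface receptor once named for C1q binding, was at 400.5 CPM in sgCEBPD 3, next to 229 to 280.2 CPM in sgCEBPD 1, 2 and 4, against 285 to 324 CPM in sgControl. C1QBP, a mostly mitochondrial protein that binds C1q, was low in sgCEBPD 3, at 239 CPM, with 398 to 422 CPM in sgCEBPD 1, 2 and 4 and 382 to 419 CPM in sgControl. Of the 13 listed genes tested, 8 were highest in sgCEBPD 3, where 34.8% of all genes tested were, and 3 were over 2-fold above the mean of the other sgCEBPD libraries, where 7.88% of all genes were.

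The C1q chains C1QA and C1QC, macrophage products that start the classical pathway, did not pass the filter and were named after their values were seen. C1QA had 0, 2, 14 and 1 counts in sgCEBPD 1 to 4, and 0 counts in each sgControl library. C1QC had 2, 1, 29 and 0 counts in sgCEBPD 1 to 4, and 0 counts in each sgControl library. FCN1, a monocyte ficolin of the lectin pathway, had 1, 4, 20 and 0 counts in sgCEBPD 1 to 4, against 1, 0, 1 and 8 counts in sgControl 1 to 4. VSIG4, a macrophage receptor for C3b, had 1, 3, 11 and 1 counts in sgCEBPD 1 to 4, against 2, 4, 1 and 3 counts in sgControl 1 to 4. COLEC12, a scavenger receptor of the collectin family, had 7 counts in sgCEBPD 3, 1 count in sgControl 1 and 0 elsewhere. These low counts were, like those of C1QA and C1QC, highest in sgCEBPD 3. Of the classical proteases, C1S was at 34.9 CPM in sgCEBPD 3, next to 22.7 to 24.9 CPM in sgCEBPD 1, 2 and 4, against 23.0 to 29.8 CPM in sgControl. C4A and C4B, near-identical copies whose reads cannot be separated with certainty, were both under 1 CPM in every library.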

How the data were processed

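RNA of 8 OCI-AML5 cultures was sequenced, 4 sgCEBPD and 4 sgControl. The authors deposited unnormalised read counts for each gene. FastQC, HISAT2, DESeq2 and build hg38 are named in the submitters' processing notes. How reads were counted, with which strand setting and annotation, is not given in the sources used here. The labels' library names gave each column its library.

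The test was edgeR 4.0.16 in R 4.3.3: filterByExpr by group, TMM scaling, robust quasi-likelihood test, Benjamini-Hochberg adjustment over all genes tested (13838 with 8 libraries, 14047 without sgCEBPD 3), threshold 0.05. A positive log2 fold change means higher in sgCEBPD, and its SE was taken as its size over the root of the F statistic. The functions were tested on simulated counts. Alternatives were DESeq2 1.42.0, other scalings and filters, single libraries omitted, a block for guide number and a threshold of 0.01. One count was 0.0864 to 0.0982 CPM. Intervals cover counting error only.

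The members and lists were chosen with earlier results of these data known. Genes named were the 9 members, CEBPD, listed complement genes past the threshold (0 were), up to 6 tested ones with the largest absolute log2 ratio of sgCEBPD 3 to the other sgCEBPD libraries, and the 3 genes nearest in pattern (mean of at least 2 CPM) to members spanning over 2 in log2 CPM. Every other complement gene named was chosen with its values known. Single values of 1 gene of the wider complement list are not reported here. Sequences are from RefSeq (GRCh38.p14).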

Additional observations from a re-analysis of the deposited data

Results flagged for a closer look

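Within groups of 4 libraries, a value was listed when its gap to the nearest other value, over the whole range, exceeded Dixon's 95% critical value. Chance alone gives about 1 in 20 groups, or 1.6 of the 32 examined, and 12 were found, 8 of them in sgCEBPD 3. The genes were chosen with these values in view, which makes that rate inapplicable.

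High values in sgCEBPD 3 were found for C3AR1 (33.9 CPM, next 2.68 CPM), C5AR1 (5.70 CPM, next 0.0946 CPM), CR1 (57.8 CPM, next 0.561 CPM), CD46 (264 CPM, next 189 CPM) and CD55 (116 CPM, next 54.7 CPM). ITGAM (210.4 CPM, next 21.3 CPM) and ITGAX (168 CPM, next 22.1 CPM) were also high there, and C1QBP was low (239 CPM, next 398 CPM). CD59 was high in sgCEBPD 4, at 19.7 CPM, with the next library at 13.4 CPM. The rest are differences of 1 count: CFP at 0 CPM in sgCEBPD 2 and at 0.194 CPM in sgControl 2, and C5AR1 at 0.0908 CPM in sgControl 3, where the other controls had 0 counts.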

How the results depend on the processing

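The number of genes passing an adjusted p of 0.05 over the whole table was 11 with 8 libraries and 283 with 7. With 8 libraries it was 292 in DESeq2, 20 with no filter, 1 with a replicate block for guide number and 1 at a threshold of 0.01. Leaving out single libraries gave 0 (without sgCEBPD 2) to 283 (without sgCEBPD 3). With 7 libraries it was 596 in DESeq2 and 40 at a threshold of 0.01, and leaving out single libraries gave 66 (without sgControl 1) to 312 (without sgCEBPD 4). Of the wider complement list, where edgeR called 0 in both comparisons, DESeq2 called 2 with 8 libraries and 3 with 7, and the replicate block called 3 with 7 (CLU and CALR among them), where the block called 352 of all 14047 genes. Leaving out any library called 0 of the list in edgeR. The cause of these differences was not tested.

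CR1 turned from a log2 fold change of 2.00 with 8 libraries to -2.80 without sgCEBPD 3. It was negative in 9 of 9 alternatives of the 7-library comparison that tested it, at -3.13 to -2.74. It did not pass the filter without sgControl 1, 3 or 4, or at a mean of at least 5 CPM. How far its low level rests on sgControl 1 and 4, its highest controls, was thus not tested. With 7 libraries CR1 passed in DESeq2 and under the replicate block. With 8 libraries it was also negative under that block, at -0.92, where C3AR1 was at 1.84 (3.09 without the block). CFD was negative in every fit run, at -1.28 to -0.76 with 8 libraries and -1.05 to -0.53 with 7. CD59 changed sign without sgCEBPD 4 or sgControl 2. Deviations from the group means correlated across genes at -0.08 to 0.06 between same-numbered libraries, so the numbers were not taken to pair them. Levels under 3 counts (0.259 to 0.295 CPM) cannot be told from 0, which limits CFP, C5AR1 and C3.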
